A study of Mus musculus with 12 samples.

Results

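Genes that flank Nr0b2, the gene of the nuclear receptor SHP (small heterodimer partner), were examined in pancreatic islets of mice with and without SHP. The set held 47 listed genes of mouse chromosome 4, where the gene table used here (assembly GRCm38.p6) has 1328 protein-coding genes, and Nr0b2 itself was not a member. Position along the chromosome is given as a rank, counted in protein-coding genes from Nr0b2 at 0. The listed genes ran from Xkr8 at rank -22 to Man1c1 at rank 33, and a separate group of Id3, Asap3, Tcea3 and Hnrnpr stood at ranks 61, 63, 64 and 66. Named probes were found for 44 of the 47 genes, in all 79 of the 45281 probes of the array. Sytl1, Wdtc1 and Rps6ka1 were not listed with a probe.

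The mice were male, 10 months old, with the strain given as C57Bl/6Hsd for both genotypes. Wild-type (WT) mice and mice lacking SHP (SHPKO, written SHP-/- in the design text) ate chow or a western diet for 6 months, starting at an age of 4 months. Islets were freed from the pancreas with collagenase, and 3 Illumina beadchip arrays were run for each of the 4 combinations of genotype and diet. Equal amounts of RNA from 5 to 9 mice were pooled per group, so the triplicates are read here as repeat measurements of 1 pool, and every p-value measures the spread between arrays and not between mice. The sources used here do not say how the SHP allele was made, and the arrays did not measure the genotype of the segment around it.

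SHP has no DNA-binding domain and acts by binding other nuclear receptors, such as LRH-1, and repressing the transcription they drive. Neighbouring genes on a chromosome are inherited together, so that the genes beside a targeted gene pass with it from one generation to the next. The neighbours of Nr0b2 share no pathway: among them are the dynein regulator Nudc, the chromatin remodelling subunit Arid1a, the nucleosome-binding protein Hmgn2, the leukocyte surface protein Cd52 and the dolichol-synthesis enzyme Dhdds.

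A probe was called detected on an array where its deposited detection p-value, which sets the signal against the array's negative controls, was below 0.01, and 13821 to 16101 probes were detected per array. The single probe of Nr0b2 was detected on none of the 12 arrays (detection p-values 0.299 to 0.761), so it gives no check of the genotype labels. Islet hormone and granule genes were abundant, with a summed linear signal of 134603 to 151870 per array over 13 measured genes of a list of 16. Markers of acinar cells, the enzyme-secreting cells around the islets, moved with genotype: 15 of 16 measured genes of a list of 19 were lower in SHPKO on both diets. Their summed signal was 214591 to 225225 on WT chow arrays and 31430 to 35603 on SHPKO chow arrays, and on western diet it was 180995 to 197124 against 32922 to 36923. The fibroblast and matrix list, with 2 measured genes of 7, summed to 121 to 205 in WT and 339 to 456 in SHPKO on chow, and to 171 to 234 and 503 to 565 on western diet. Of these 2 genes only Dcn was called, with log2 differences of 1.55 on chow and 1.68 on western diet. Pdgfrb differed by 0.13 and 0.20. Cell cycle genes, with 6 measured of 15, summed to 658 to 705 on WT chow, 392 to 402 on SHPKO chow, 327 to 374 on WT western diet and 430 to 466 on SHPKO western diet, with 4 of the 6 called lower in SHPKO on chow and 4 called for the interaction of genotype and diet. Red blood cell genes, with 4 measured of 5, summed to 9478 to 11400 on the 6 chow arrays, to 2151 to 2864 on WT western diet and to 3339 to 4124 on SHPKO western diet. In whole islet preparations, fewer cells of a type and less RNA per cell cannot be told apart, and the part of these shifts in the values below was not tested.

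Of the 79 probes, 33 probes of 29 genes were kept for testing, because they were detected on all 3 arrays of at least 1 group. A difference between groups was called where its Benjamini-Hochberg adjusted p, taken over all 14756 kept probes, was below 0.05 and its size was at least 1.5-fold. On chow, 11 of the 33 probes were called between SHPKO and WT, 4 higher and 7 lower, where 2.58% of all kept probes were called (1.55% higher and 1.03% lower). On western diet 7 were called, 2 higher and 5 lower, against 2.92% of all kept probes (1.71% higher and 1.21% lower). Averaged over both diets 9 were called, against 1.85%. Each of the 7 western diet calls was also called on chow, so 0 of the 33 probes were called on western diet alone. Over all kept probes that share was 2.07%, too small to tell apart from 0 of 33. Of the 7, 6 were called in the same direction on both diets, against 0.752% of all kept probes. Gpn2, Tcea3, Hnrnpr, Xkr8 and Mtfr1l were lower (0.623% of all) and Cd164l2 was higher (0.129% of all) in SHPKO on both diets. Cd52 was called in opposite directions, which held for 0.0949% of all kept probes. Without the 4 genes at ranks 61 to 66, a count added after the data were seen, 8 of 29 probes were called on chow, 5 on western diet and 4 on both in the same direction. The members were chosen with earlier results of these data known, so these counts describe the list and not the whole segment. Called on at least 1 diet were 33.3% of the member probes and 10.3% of probes of unlisted genes between the outermost members.

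Only 23 of the 33 probes were detected on all 12 arrays, and 4 were kept through a single group (Cep85, Zfp593, Asap3 and 1 Man1c1 probe). Asap3 passed only through the SHPKO chow arrays and Zfp593 only through the WT chow arrays, where each was highest. The filter thus favoured the direction of both these chow calls. Xkr8 and Mtfr1l passed only through the WT arrays of both diets, where each was higher, which favoured the direction of their calls. Among the 23, the same test called 7 probes on chow and 5 on western diet, where it called 1.53% and 1.65% of the 12332 probes of the array that were detected throughout. The median size of the genotype difference over the 33 probes was 0.40 on the log2 scale on chow and 0.32 on western diet, against 0.125 and 0.124 over all kept probes. The signed medians were -0.11 and -0.04, against 0.01 over all kept probes on either diet. The log2 signals of the 3 arrays in 1 genotype did not overlap those of the other for 21 of the 33 probes on chow, against 18.6% of all kept probes, and for 17 on western diet, against 24.3%.

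**Figure D1:**
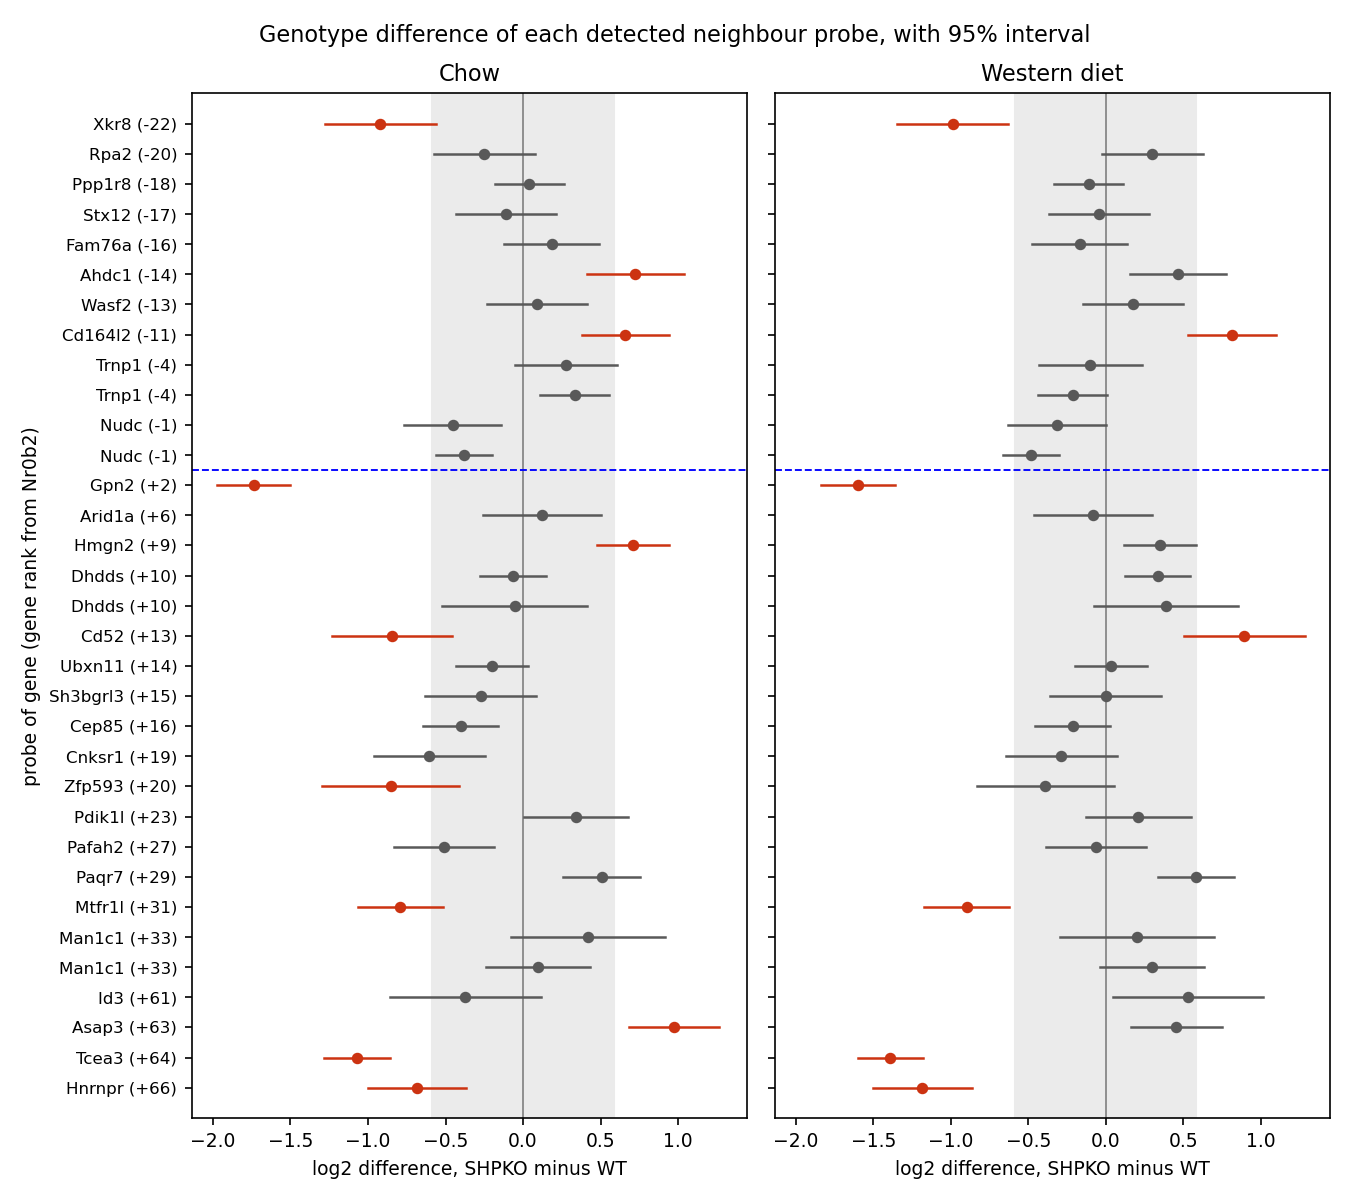
Log2 difference, SHPKO minus WT, of each of the 33 kept neighbour probes on chow (left) and on western diet (right), ordered by gene rank from Nr0b2 (dashed line); points are estimates, bars are 95% intervals, called probes are red, and the grey band spans 1.5-fold either way. Gpn2, at rank 2, lies farthest to the left on both diets, and 8 probes have both intervals inside the band.

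Gpn2, a GPN-loop GTPase that takes part in the assembly of RNA polymerases, stood at rank 2 and showed the largest difference of the listed genes. Its log2 signals were 8.96, 8.61 and 8.70 on the WT chow arrays and 6.96, 7.16 and 6.94 on the SHPKO chow arrays. On western diet they were 8.71, 8.84 and 8.74 in WT and 7.08, 7.18 and 7.24 in SHPKO. Every SHPKO array lay more than 1 log2 unit below every WT array. The signal fell by 1.74 ± 0.11 (SE) on chow, a 3.33-fold difference (adjusted p = 3.5e-07), and by 1.60 ± 0.11 on western diet, a 3.03-fold difference (adjusted p = 5.9e-07).

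Tcea3, a tissue-restricted form of the transcription elongation factor TFIIS, stood at rank 64. Its kept probe read 6.74, 6.93 and 6.99 in WT and 5.84, 5.84 and 5.77 in SHPKO on chow. On western diet the arrays read 7.25, 7.01 and 7.11 in WT and 5.70, 5.78 and 5.72 in SHPKO. The genotypes were separated on both diets, and the 6 SHPKO arrays lay within a narrow range. Tcea3 fell by 1.07 ± 0.10 (SE) on chow, 2.10-fold (adjusted p = 1.7e-05), and by 1.39 ± 0.10 on western diet, 2.62-fold (adjusted p = 7.2e-07). Its second probe was detected on 1 array, in the WT western diet group, and differed by -0.13 on chow and -0.36 on western diet.

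Hnrnpr, which encodes a heterogeneous nuclear ribonucleoprotein that binds pre-mRNA, stood at rank 66. The kept probe read 6.83, 6.60 and 6.64 in WT and 6.11, 6.03 and 5.88 in SHPKO on chow, and 6.97, 6.72 and 6.43 against 5.76, 5.35 and 5.47 on western diet. Genotypes did not overlap on either diet. The fall was 1.61-fold on chow (log2 difference -0.68 ± 0.15, adjusted p = 0.021) and 2.27-fold on western diet (-1.18 ± 0.15, adjusted p = 0.00024). The chow call was lost when WT chow array 1 or 3, or any 1 of the SHPKO chow arrays, was left out (adjusted p 0.0514 to 0.0847, with differences of -0.61 to -0.74). It was also lost without background correction (-0.38), with a larger offset of 50 before the logarithm, and without the filter on dim probes. The western diet call held in all 21 other settings. Another 3 probes listed for Hnrnpr were detected on no array.

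Xkr8 at rank -22, the phospholipid scramblase that exposes phosphatidylserine on dying cells, read 6.09, 6.49 and 6.11 in WT and 5.19, 5.15 and 5.58 in SHPKO on chow. Western diet arrays read 6.49, 6.20 and 6.55 in WT and 5.55, 5.15 and 5.59 in SHPKO. The SHPKO arrays were near the detection limit, with the probe detected on 1 of 3 on chow and 2 of 3 on western diet, and all lay below the WT arrays. The probe passed the filter only through the WT arrays, which favoured that direction on both diets. Xkr8 fell by 0.92 ± 0.16 (SE) on chow (1.89-fold, adjusted p = 0.0070) and by 0.99 ± 0.16 on western diet (1.98-fold, adjusted p = 0.0032). Without background correction the log2 differences shrank to -0.43 and -0.48, and with a larger offset of 50 before the logarithm the chow difference was -0.57, sizes that fall short of 1.5-fold.

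Mtfr1l at rank 31, named for its likeness to a regulator of mitochondrial fission, read 5.95, 6.06 and 5.70 in WT and 5.12, 4.97 and 5.24 in SHPKO on chow. On western diet it read 5.95, 5.73 and 5.53 in WT and 4.79, 4.87 and 4.86 in SHPKO. WT lay above SHPKO throughout, and the probe was detected on 1 of 3 SHPKO arrays on chow and on none on western diet. It passed the filter only through the WT arrays, which favoured that direction on both diets. The measured chow difference was -0.79 ± 0.13 (adjusted p = 0.0033), a size that rests in part on values not above background. On western diet WT was at least 1.38-fold higher, the WT mean set against the lowest signal of detected probes on each SHPKO array (measured difference -0.90 ± 0.13, adjusted p = 0.00086). Both calls were lost without background correction (-0.33 and -0.36) and with the offset of 50 (-0.45 and -0.48).

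Cd164l2, at rank -11 and named for its likeness to the sialomucin CD164, was the one listed gene called higher on both diets. It read 6.89, 6.95 and 6.89 in WT and 7.56, 7.75 and 7.40 in SHPKO on chow, and 6.18, 6.68 and 6.57 against 7.37, 7.29 and 7.21 on western diet. All SHPKO arrays were above all WT arrays of the same diet. Cd164l2 rose by 0.66 ± 0.13 (SE) on chow (1.58-fold, adjusted p = 0.014) and by 0.82 ± 0.13 on western diet (1.76-fold, adjusted p = 0.0023). Leaving out SHPKO chow array 1 or 2 ended the chow call (adjusted p = 0.0559 and 0.0700), as did 2 other settings, within a range of 0.00422 to 0.07 over 21 settings. The western diet call was lost without background correction, where the difference was 0.53, under 1.5-fold. The interaction test in limma called none of the 6 genes (adjusted p 0.32 to 0.96), with an unadjusted p of 0.036 for Tcea3 and 0.032 for Hnrnpr.

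**Figure D2:**
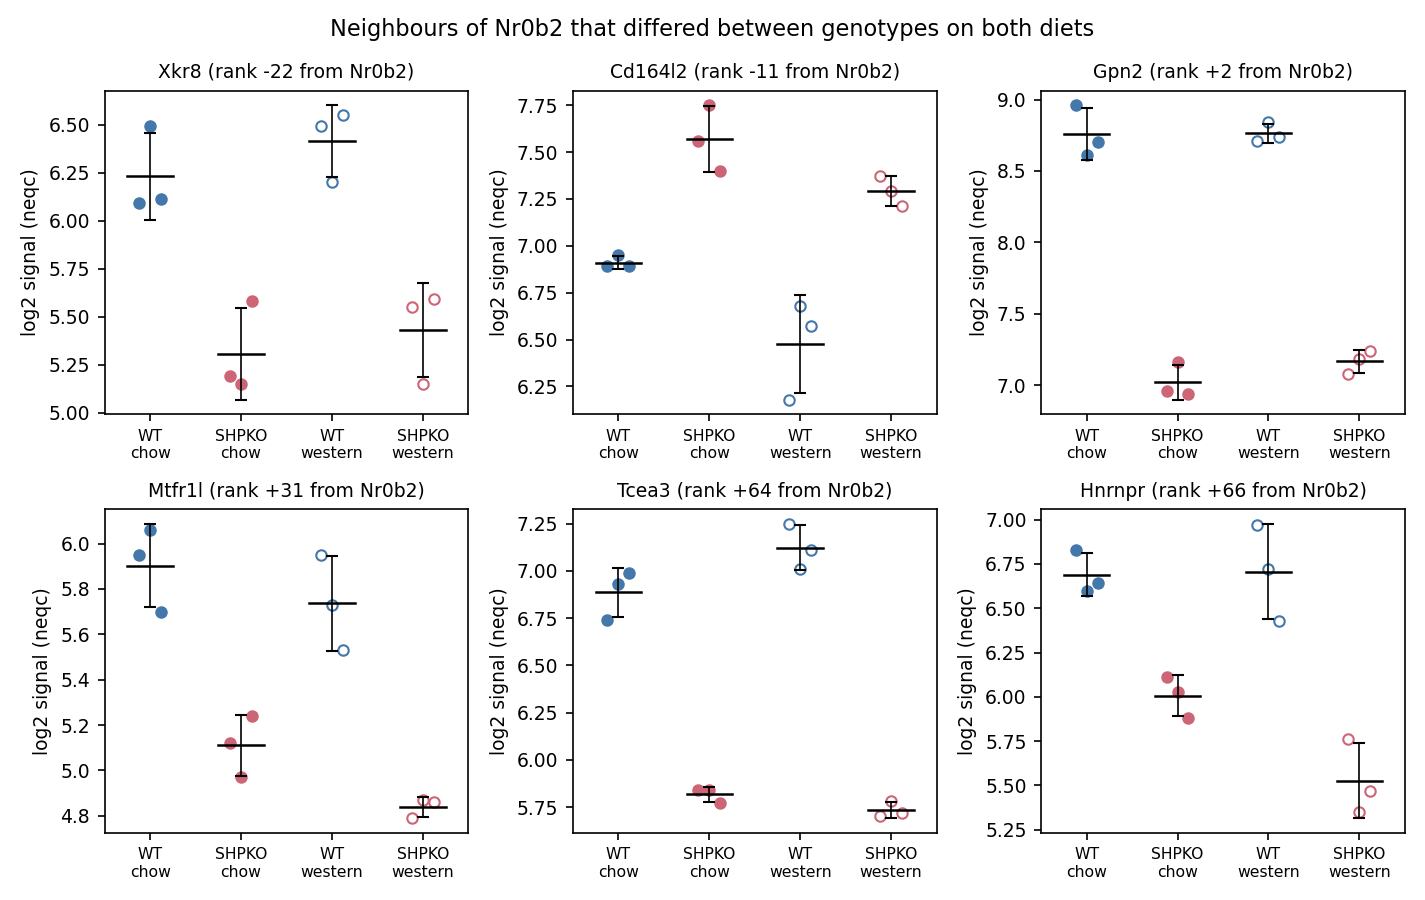
Log2 signal of the 6 neighbours called in the same direction on both diets, by group; points are the 3 arrays of a group, horizontal lines their mean and bars the SD. In each panel the WT and SHPKO arrays of a diet do not overlap, with SHPKO lower in 5 genes and higher in Cd164l2.

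Promoter sequence was set beside these 6 genes because they are the members that moved alike on both diets. RefSeq windows of assembly GRCm38.p6, matched by gene symbol, held 1 annotated start for 3 of them and several for Mtfr1l and Hnrnpr. The 250 bases before the start are shown for Cd164l2 (chr4:133220559-133220808), Gpn2 (chr4:133584123-133584372) and Tcea3 (chr4:136247707-136247956), all on the plus strand and written 5′ to 3′, and capitals mark CAAGG on either strand, the core of the sites that LRH-1 binds.
Cd164l2: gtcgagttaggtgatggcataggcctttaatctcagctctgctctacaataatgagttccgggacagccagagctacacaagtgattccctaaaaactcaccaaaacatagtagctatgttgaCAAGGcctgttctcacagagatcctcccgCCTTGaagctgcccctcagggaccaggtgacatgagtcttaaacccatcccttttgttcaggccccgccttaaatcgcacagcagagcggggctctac
Gpn2: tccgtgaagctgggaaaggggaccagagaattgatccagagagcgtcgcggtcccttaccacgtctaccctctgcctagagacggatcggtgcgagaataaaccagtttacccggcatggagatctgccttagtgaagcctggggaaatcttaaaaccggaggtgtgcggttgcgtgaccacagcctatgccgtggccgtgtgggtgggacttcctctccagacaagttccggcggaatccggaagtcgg
Tcea3: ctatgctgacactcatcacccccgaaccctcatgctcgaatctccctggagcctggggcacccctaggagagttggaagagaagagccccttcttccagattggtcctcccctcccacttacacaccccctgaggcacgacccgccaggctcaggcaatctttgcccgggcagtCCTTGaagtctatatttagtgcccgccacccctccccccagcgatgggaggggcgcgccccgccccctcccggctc
CAAGG was found at 2 places in the Cd164l2 window, at 1 in that of Tcea3 and at 0 in that of Gpn2, and 46% of all 32851 promoter windows of the same length hold it. The nuclear receptor half-site AGGTCA, found in 14% of all windows, and the longer LRH-1 motif CAAGGNCA, which contains CAAGG and is found in 5.53%, were found 0 times in these 3 windows on either strand. These letters describe the windows and say nothing of binding. GC content was 50.8% for Cd164l2, 57.6% for Gpn2 and 64.0% for Tcea3, where the median of all windows was 52.4%.

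The other 4 calls were made on chow alone, against 1.73% of all kept probes: Ahdc1, Hmgn2 and Asap3 were higher in SHPKO and Zfp593 was lower. Hmgn2 at rank 9, which encodes a protein that binds nucleosomes and loosens chromatin, read 11.88, 11.66 and 11.92 in WT and 12.44, 12.46 and 12.67 in SHPKO on chow. On western diet it read 11.94, 11.87 and 11.96 in WT and 12.17, 12.22 and 12.43 in SHPKO. The genotypes did not overlap on either diet, with a smaller gap on western diet. Hmgn2 rose 1.63-fold on chow (0.71 ± 0.11, adjusted p = 0.0023), and the western diet difference was 0.35 ± 0.11 (adjusted p = 0.10). With median centring in place of quantile normalization the chow difference was 0.49, short of 1.5-fold.

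Ahdc1 at rank -14 encodes an AT-hook DNA-binding protein, mutated in Xia-Gibbs syndrome in humans. It read 7.68, 7.13 and 7.15 in WT and 8.11, 7.90 and 8.12 in SHPKO on chow, and 7.55, 7.63 and 7.40 against 8.12, 7.98 and 7.88 on western diet. SHPKO lay above WT on both diets, and WT chow array 1 was closest to the SHPKO arrays. The chow rise was 1.65-fold (0.72 ± 0.14, adjusted p = 0.014), and on western diet the difference was 0.47 ± 0.14 (adjusted p = 0.11). Leaving out WT chow array 2 or 3 or SHPKO chow array 1 ended the chow call (adjusted p 0.0562 to 0.0704), within a range of 0.00126 to 0.0799 over 21 settings.

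Asap3 at rank 63, a GTPase-activating protein for Arf proteins, was undetected on all 6 WT arrays. Its kept probe read 5.30, 5.54 and 5.80 in SHPKO on chow and 4.90, 5.27 and 4.98 on western diet, where it was detected on 1 of 3 arrays, while WT arrays read 4.62, 4.57 and 4.54 on chow and 4.47, 4.61 and 4.70 on western diet. SHPKO was above WT on every array. On chow Asap3 was at least 1.16-fold higher in SHPKO (measured difference 0.97 ± 0.13, adjusted p = 0.0010), and the western diet difference of 0.46 ± 0.13 was not called (adjusted p = 0.090). The probe passed the filter only through the SHPKO chow arrays, which favoured the direction of the chow difference. A further probe, detected on 2 SHPKO arrays of each diet and on no WT array, differed by 0.62 and 0.23, and the last was detected nowhere.

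Zfp593 at rank 20, a zinc finger protein, was detected on all 3 WT chow arrays, on 1 WT western diet array and on no SHPKO array. It read 5.21, 5.61 and 5.91 in WT and 4.82, 4.80 and 4.55 in SHPKO on chow, and 4.83, 5.26 and 5.54 against 4.55, 4.89 and 5.02 on western diet. The genotypes were apart on chow and overlapped on western diet. WT was at least 1.28-fold higher on chow (measured difference -0.85 ± 0.20, adjusted p = 0.039). The probe passed the filter only through the WT chow arrays, which favoured that direction. The call was kept in 8 of 20 other settings and was lost when WT chow array 2 or 3, any 1 SHPKO chow array, WT western diet array 2 or SHPKO western diet array 2 was left out, with adjusted p-values of 0.0098 to 0.151 over those settings. For none of the 4 genes did the genotype difference itself differ between diets by the interaction test in limma (adjusted p = 0.33 for Hmgn2, 0.70 for Ahdc1, 0.25 for Asap3 and 0.58 for Zfp593), although the unadjusted p was 0.036 for Hmgn2 and 0.018 for Asap3.

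Cd52, a small GPI-anchored glycoprotein on the surface of lymphocytes and some myeloid cells, stood at rank 13 and was the only member whose genotype difference was called different between diets, against 2.09% of all kept probes. Its bright probe read 7.91, 7.84 and 7.63 in WT and 7.19, 7.17 and 6.48 in SHPKO on chow. On western diet it read 8.43, 8.18 and 8.02 in WT and 9.24, 9.09 and 8.99 in SHPKO. SHPKO was below WT on chow and above it on western diet, with no overlap on either. The difference was -0.85 ± 0.18 on chow (1.80-fold lower, adjusted p = 0.020) and 0.89 ± 0.18 on western diet (1.86-fold higher, adjusted p = 0.012), and the interaction was 1.74 ± 0.25 (adjusted p = 0.0020). From chow to western diet Cd52 rose 4.46-fold in SHPKO (2.16 ± 0.18, adjusted p = 6.1e-06), the one member called there, against 3.61% of all kept probes, and the change in WT was 0.42 ± 0.18 (adjusted p = 0.20). Leaving out WT chow array 1 or 2 ended the chow call (adjusted p = 0.0763 and 0.0619, range 0.00135 to 0.084), and leaving out WT western diet array 3 or SHPKO western diet array 1 ended the western diet call (adjusted p = 0.0603 and 0.0577, range 0.000783 to 0.0603).

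Lymphocyte markers rose in the same group of arrays as Cd52. Of a list of 16 genes for B and T lymphocytes, 8 were measured, and their summed linear signal was 192 to 204 on WT chow, 189 to 206 on SHPKO chow, 203 to 221 on WT western diet and 918 to 977 on SHPKO western diet. All 8 were undetected in both chow groups and passed the filter only through the SHPKO western diet arrays, so that their direction there was set by the filter and is given as a description. From chow to western diet in SHPKO, Cd79b was at least 6.04-fold, Fcmr at least 8.92-fold and Cd22 at least 2.58-fold higher. The myeloid list, with 12 measured genes of 14, summed to 1948 to 1955 on WT chow, 1591 to 1719 on SHPKO chow, 1963 to 2230 on WT western diet and 2013 to 2116 on SHPKO western diet. The median genotype difference of the 12 on chow was -0.16, and none was called, with adjusted p-values of 0.137 to 0.95 in limma. The summed signal was lower on every SHPKO chow array than on any WT chow array. The part of either cell type in the Cd52 signal was not tested.

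A second, dim Cd52 probe did not follow the bright one. It read 5.33, 4.89 and 4.60 in WT and 4.42, 4.38 and 4.45 in SHPKO on chow, and 5.52, 5.40 and 5.11 in WT and 4.44, 4.41 and 4.55 in SHPKO on western diet. It was detected on 3 arrays, all WT, and did not pass the filter, so that its SHPKO values are signals not above background. Without the filter, the genotype difference on western diet was 1.77 ± 0.20 lower on the dim probe than on the bright one (adjusted p = 0.00036 over 15828 pairs), and on chow the probes differed by 0.32 ± 0.20 (adjusted p = 0.66).

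Nudc and Gpn2 were the nearest measured genes on either side of Nr0b2. Nudc at rank -1, a dynein regulator needed for nuclear movement and cell division, had 2 kept probes. The brighter read 11.63, 11.53 and 11.51 in WT and 11.12, 11.19 and 11.23 in SHPKO on chow, and 11.61, 11.65 and 11.61 against 11.19, 11.17 and 11.07 on western diet. WT arrays lay above SHPKO arrays on both diets by a small and even margin. The differences of -0.38 ± 0.08 (adjusted p = 0.024) and -0.48 ± 0.08 (adjusted p = 0.0040) passed the p threshold but were under the 1.5-fold required for a call. The dimmer probe differed by -0.45 ± 0.14 on chow and -0.32 ± 0.14 on western diet (adjusted p = 0.13 and 0.32).

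Trnp1 at rank -4, a nuclear protein that regulates the division of neural progenitors, also had 2 kept probes. The brighter read 7.19, 7.48 and 7.58 in WT and 7.77, 7.72 and 7.76 in SHPKO on chow, and 8.48, 8.44 and 8.34 against 8.22, 8.16 and 8.23 on western diet. SHPKO lay above WT on chow and below it on western diet, with differences of 0.33 ± 0.10 and -0.21 ± 0.10 that were not called (adjusted p = 0.12 and 0.35). Both probes were called from chow to western diet in WT, where 3.25% of all kept probes were called and no other member was. In the same comparison all 4 measured red blood cell genes and 4 of 6 cell cycle genes were called lower, and their part in the Trnp1 difference was not tested. The brighter rose 2.00-fold (1.00 ± 0.10, adjusted p = 0.00010). The dimmer, undetected on the WT chow arrays at 4.78 to 5.14, was at least 1.38-fold higher on western diet (measured difference 0.79 ± 0.15, adjusted p = 0.011). In SHPKO the brighter probe differed by 0.45 ± 0.10 between diets (adjusted p = 0.022), under 1.5-fold, and the interaction of -0.55 was not called (adjusted p = 0.091).

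**Figure D3:**
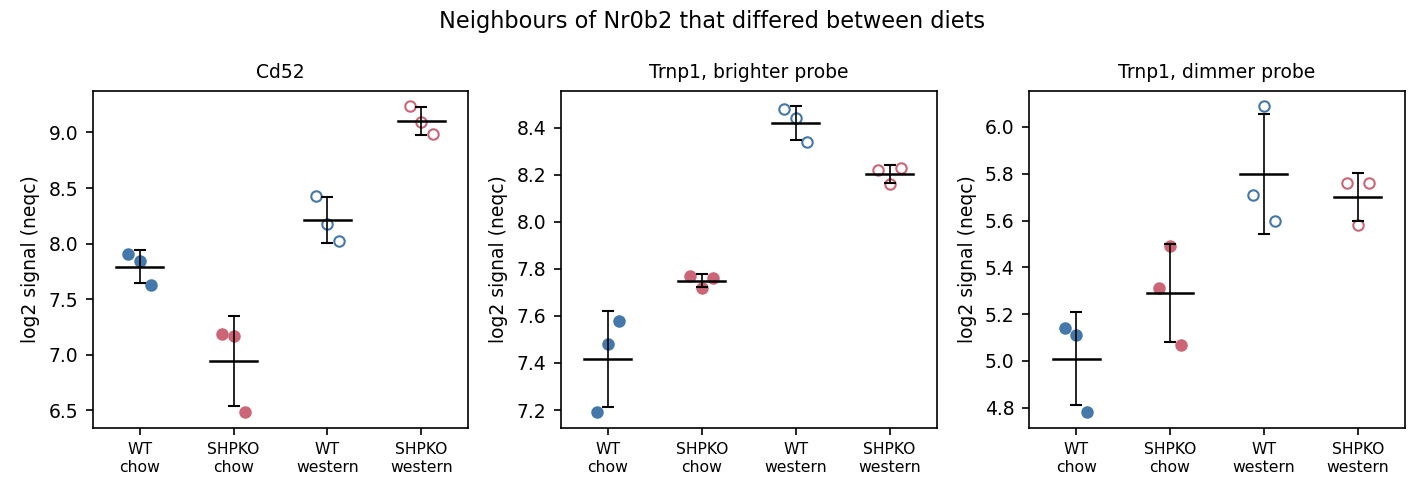
Log2 signal by group of the probes called between diets: Cd52 and both kept probes of Trnp1; points are the 3 arrays, horizontal lines the mean and bars the SD. Cd52 is highest in SHPKO on western diet and lowest in SHPKO on chow, and both Trnp1 probes are lowest in WT on chow.

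Arid1a at rank 6, a DNA-binding subunit of the BAF chromatin remodelling complex, read 5.98, 5.74 and 5.77 in WT and 6.13, 6.15 and 5.58 in SHPKO on chow. On western diet it read 6.12, 6.61 and 6.13 in WT and 6.08, 6.41 and 6.13 in SHPKO. Genotypes overlapped on both diets, with differences of 0.12 (95% interval -0.26 to 0.50) and -0.08 (-0.46 to 0.30). Both intervals lay within 1.5-fold, although Gpn2 and Hmgn2, the nearest measured members on either side of it, were called.

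A missed p does not show that a neighbour was unchanged, so the 95% interval of each difference was set against 1.5-fold in either direction. On both diets together the interval lay inside for 8 of the 33 probes, against 64.9% of all kept probes. These were Ppp1r8, Stx12, Fam76a, Wasf2, Arid1a, Ubxn11 and the brighter probes of Trnp1 and Dhdds. Taken singly, 12 probes lay inside on chow and 14 on western diet, where 75.9% and 75.8% of all kept probes did. Ppp1r8, an inhibitory subunit of the phosphatase PP1, had an interval of -0.18 to 0.26 on chow and of -0.33 to 0.11 on western diet. Stx12, a syntaxin of recycling endosomes, lay at -0.43 to 0.21 and -0.37 to 0.28, and Wasf2, the WAVE protein that activates actin branching, at -0.24 to 0.41 and -0.15 to 0.50. A second, dim Wasf2 probe did not pass the filter and differed by 0.80 on chow and 0.19 on western diet. It was detected on 2 SHPKO chow arrays, 1 SHPKO western diet array and no WT array.

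For the remaining kept probes no call was made and the interval reached past 1.5-fold on at least 1 diet. Among them Paqr7 and the brighter Nudc probe passed the p threshold on both diets at sizes under 1.5-fold, with intervals that exclude 0. Paqr7 at rank 29, a membrane progestin receptor, read 5.91, 6.08 and 5.72 in WT and 6.46, 6.24 and 6.52 in SHPKO on chow, and 6.36, 6.16 and 6.21 against 6.77, 6.80 and 6.91 on western diet. SHPKO was above WT without overlap on both diets, by 0.51 ± 0.11 (adjusted p = 0.029) and 0.58 ± 0.11 (adjusted p = 0.010), just under the fold required. Cnksr1 at rank 19, a scaffold of Ras signalling, had a chow difference of -0.60 ± 0.17 (adjusted p = 0.076) and a western diet difference of -0.29 ± 0.17. Over all probes called on neither diet, the differences ran from -0.60 to 0.51 on chow and from -0.48 to 0.58 on western diet. Id3, an inhibitor of basic helix-loop-helix factors at rank 61, was undetected on the WT western diet arrays and at least 1.22-fold higher in SHPKO there, which was not called (adjusted p = 0.27).

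More than 1 probe was present for 23 of the listed genes, but only Trnp1, Nudc, Dhdds and Man1c1 had 2 kept probes. The test of agreement was the difference between the genotype differences of the 2 probes of a gene, fitted with limma over all 3910 such pairs of the array. None of these 4 pairs disagreed on either diet (lowest unadjusted p = 0.285 on chow and 0.308 on western diet), against 0.512% of all pairs on chow and 0.767% on western diet. Nudc probes differed from each other by -0.08 (95% interval -0.41 to 0.26) on chow and 0.17 (-0.17 to 0.50) on western diet. For Trnp1 the values were -0.06 (-0.47 to 0.36) and 0.11 (-0.30 to 0.53). Dhdds, the catalytic subunit of the enzyme that makes dolichol, gave 0.01 (-0.41 to 0.44) and 0.06 (-0.37 to 0.48). Man1c1, a Golgi mannosidase, had the widest intervals, -0.31 to 0.96 and -0.73 to 0.53, which leave room for a disagreement beyond 1.5-fold.

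None of the 11 genes called between genotypes had a second kept probe, so each of those calls rests on 1 probe. With the filter lifted, 5 pairs disagreed on at least 1 diet, against 1.33% of all pairs: the Cd52 pair, the Tcea3 pair and all 3 pairs of Hnrnpr. Beside the kept probe of Tcea3, the second probe gave a difference 0.94 ± 0.18 higher on chow (adjusted p = 0.043) and 1.03 ± 0.18 higher on western diet (adjusted p = 0.012). The 3 dim Hnrnpr probes gave differences 1.13 to 1.29 higher on western diet. The second Tcea3 probe was detected on 1 array, the 3 Hnrnpr probes on none and the dim Cd52 probe on 3, so most of their values are signals not above background. Hmgn2 had a second probe that was detected on 7 arrays without filling any group, and it differed by -0.31 on chow and 0.02 on western diet, where the kept probe differed by 0.71 and 0.35.

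For 15 listed genes every probe failed the filter: Smpdl3b, Themis2, Fgr, Gpr3, Map3k6, Tmem222, Gpatch3, Sfn, Zdhhc18, Pigv, Lin28a, Trim63, Slc30a2, Extl1 and Stmn1. They include Lin28a, an RNA-binding protein of early embryonic cells, Trim63, the muscle ubiquitin ligase MuRF1, and Fgr, a Src-family kinase of myeloid cells. Of the 46 probes not kept, 36 were detected on no array and 10 on some. The deposited signals of these genes give no level above background, and no change was assessed.

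Genotype differences on the 2 diets come from separate arrays and could be set against each other. Over the 33 kept probes they had the same sign for 21 (63.6%), against 56.6% of all kept probes. The correlation across the 33 probes was r = 0.71 (Spearman's rho 0.64), against 0.51 (0.21) over all kept probes, given as a description since probes are not independent replicates. It was 0.82 without Cd52 and 0.57 without Gpn2 and Tcea3.

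**Figure D4:**
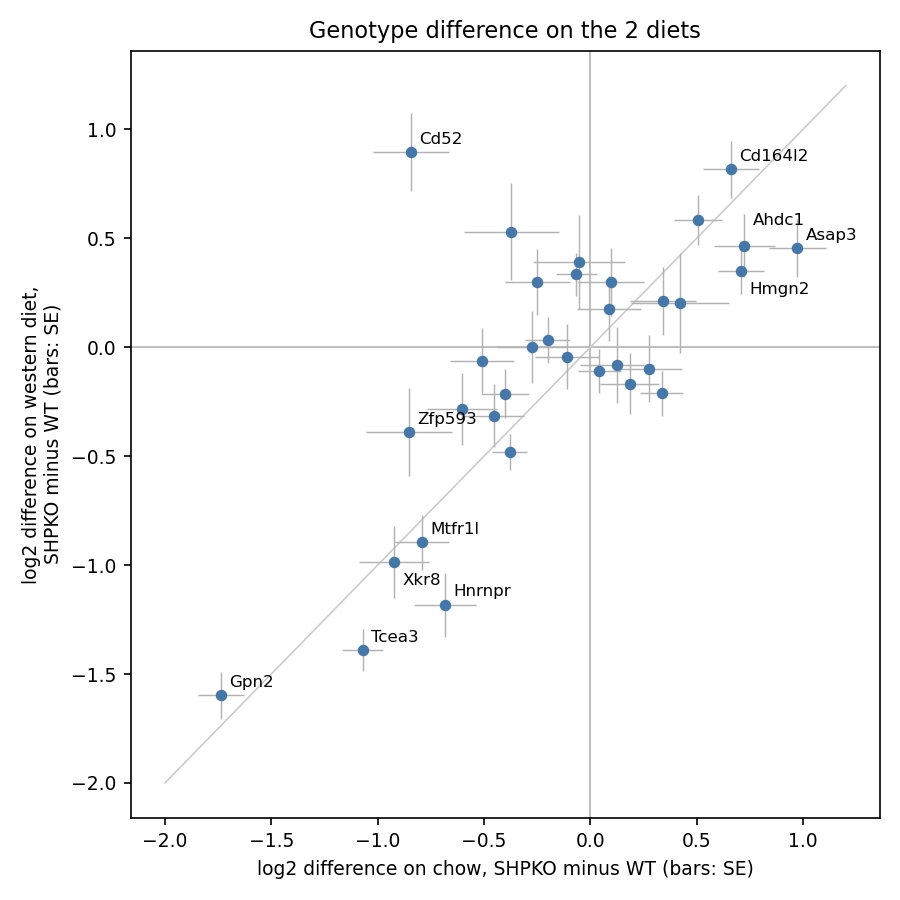
Log2 difference, SHPKO minus WT, of the 33 kept neighbour probes on chow (x axis) and on western diet (y axis), with bars of 1 SE and the line of equal differences; called genes are named. Gpn2 and Tcea3 lie at the lower left, Cd164l2 at the upper right, and Cd52 alone is called in the upper left.

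By gene order, calls on at least 1 diet made up 26.3% of kept probes at ranks -25 to -1 and 28.6% at ranks 1 to 25, members and other genes together. The share was 16.7% at ranks 26 to 50, 17.4% at ranks 51 to 75 and 5.88% at ranks 76 to 100. On the other side it was 9.09% at ranks -50 to -26 and 10.5% at -75 to -51, and 4 of 16 probes were called at -100 to -76. Of the 673 chromosome 4 probes more than 100 ranks from Nr0b2, 2.67% were called. On the other chromosomes the share was 3.98%, and over all kept probes, unnamed ones included, it was 4.66%. Each block holds 14 to 23 probes and moves by several percentage points with 1 probe, and these shares are a description with no test.

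Genes that lie between the outermost members but are not on the list had 3 of 29 probes called (10.3%). Among these, a probe of Nipal3 and a probe of Clic4 were lower in SHPKO on both diets. Nipal3 at rank 45 is a member of the NIPA-like family. Its called probe read 6.49, 6.05 and 5.93 in WT and 4.86, 4.55 and 4.70 in SHPKO on chow, and was undetected on all 6 SHPKO arrays. On this probe WT was at least 1.91-fold higher on chow and at least 1.75-fold higher on western diet (adjusted p = 0.00014 and 5.3e-05). It passed the filter only through the WT arrays, which favoured that direction on both diets. Another kept Nipal3 probe differed by -0.31 on chow and -0.05 on western diet and was not called. Clic4 stood at rank 41 and encodes a chloride intracellular channel protein. Its called probe differed by -0.72 ± 0.17 on chow and -0.92 ± 0.17 on western diet (adjusted p = 0.039 and 0.0078). The other kept Clic4 probes were not called, with differences of -0.12 and -0.03 on chow and of -0.35 and 0.09 on western diet.

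**Figure D5:**
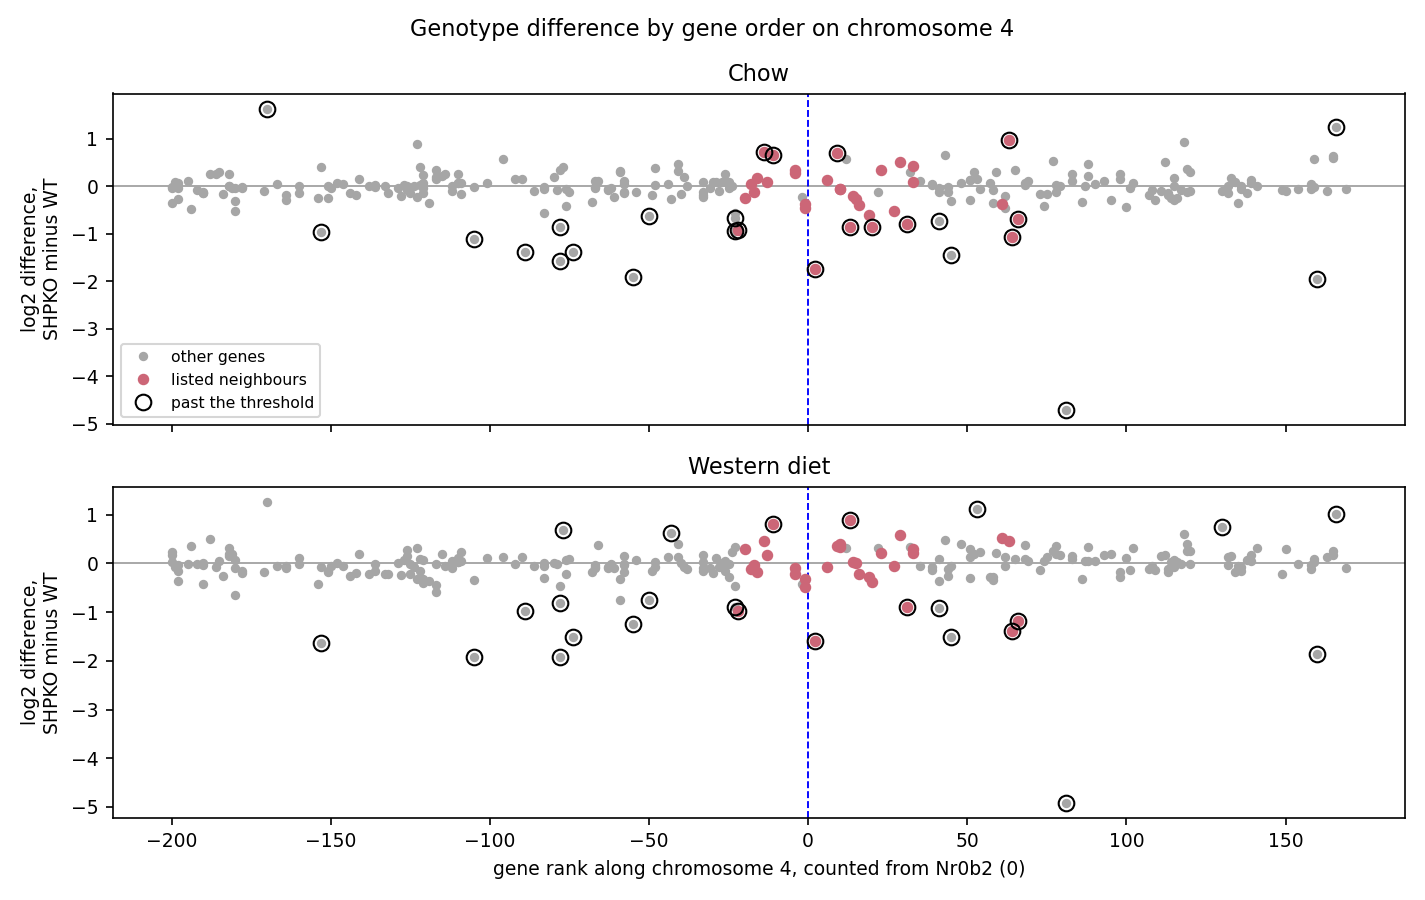
Log2 difference, SHPKO minus WT, of kept probes within 200 gene ranks of Nr0b2 on chromosome 4, on chow (top) and western diet (bottom); listed neighbours are red, other genes grey, and circles mark called probes. Called probes lie among the listed neighbours and on both sides of them. On the left they reach past rank -105, to Rhbdl2 at rank -153 (called on both diets) and Cap1 at rank -170 (called on chow). On the right they include Cela2a at rank 160 and Pdpn at rank 166, each called on both diets. The deepest point at the right is Cela3b, an elastase of acinar cells.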

How the data were processed

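RNA from islets of the 4 groups was measured on 12 Illumina beadchips. Per the submitters' processing notes the authors used BeadStudio, with no version given. Per the file headers, the deposited table holds an intensity per probe and array, on a linear scale and not normalized, and beside it a detection p-value that was not adjusted. A second deposited table of normalized intensity values served as an alternative. Platform annotation updated through the RefSeq gene table named the probes, with 34885 carrying 1 gene, 18 several and 10378 none listed.

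Intensities were background-corrected and quantile-normalized with neqc (limma 3.58.1, R 4.3.3, offset 16, background from the detection p-values) and taken to log2. limma fitted 4 group means per probe over 14756 kept probes, with moderated variances. A bound ("at least N-fold") sets the brighter mean against, per array, the higher of the probe's signal and the lowest detected signal (5.07 to 5.48). Checks on simulated data preceded the fits. Values by array are given for members called between genotypes, for those with a disagreeing kept pair and for the 3 nearest on each side. Paqr7 and the dim second probes were chosen after their values were seen. The members and lists were chosen with earlier results of these data known. Settings tried were background correction, offset, normalization, probe filter, probe choice, arrays fitted and replicate block. Same-numbered WT and SHPKO arrays on western diet deviated together (r 0.16 to 0.431 for the 3 pairs). In the other comparisons between groups r was not above 0.1 for every pair. On western diet a fit with these numbers as pairs called the same 7 members. The differences, SEs and p-values given come from the fit without pairs, unless another setting is named. The sources used here do not name the slide of each array. With 3 arrays per group, precision is limited by their number.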

Additional observations from a re-analysis of the deposited data

Results flagged for a closer look

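Cd52 was singled out by the interaction test: its SHPKO minus WT difference on western diet exceeded that on chow by 1.74 on the log2 scale (SE 0.25, adjusted p = 0.0020 in limma). All 3 SHPKO arrays lay below all 3 WT arrays on chow and above them on western diet.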

How the results depend on the processing

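No result changed direction among the calls. Gpn2 and Tcea3 on both diets and Hnrnpr on western diet were called in all 21 other settings. Without background correction the calls fell to 4 on chow, 4 on western diet, 2 averaged over both diets (9 in the fit described) and 1 from chow to western diet in WT, with 2 called alike on both diets, 23 probes inside 1.5-fold, and 9.09% of probes within 25 ranks of Nr0b2 called on at least 1 diet (27.3% in the fit described). With an offset of 50 there were 5 calls on chow, 4 averaged over diets, 1 for diet in WT and 2 alike on both diets, with 17 probes inside 1.5-fold. Counts alike on both diets were added after the data were seen. Without a filter, 5 probe pairs disagreed, 39 probes lay inside 1.5-fold and 12.7% of probes within 25 ranks were called. Probes detected on all 12 arrays gave 7 calls on chow, 5 averaged and 1 for diet in WT, and 1 probe per gene also gave 1 for diet in WT. On adjusted p alone there were 15 calls averaged over diets (5.25% of all kept probes) and 2 for diet in SHPKO (5.71%). Leaving out 1 array at a time gave 7 to 12 calls on chow, 6 to 8 on western diet, 7 to 9 averaged, 1 to 2 for the interaction, 1 to 2 for diet in SHPKO, 2 to 3 for diet in WT, 4 to 6 alike on both diets, 0 disagreeing pairs and 6 to 10 probes inside 1.5-fold. The lowest chow count came without SHPKO chow array 1, the interaction count of 2 without WT chow array 3, and the count of 2 for diet in SHPKO without SHPKO chow array 1 or SHPKO western diet array 2. The cause of these shifts was not tested. With the replicate number as a block there were 12 calls on chow, 7 on western diet and 6 alike on both. Over all 18 same-numbered pairs of arrays r was -0.048 to 0.553, above 0.1 in 11. The 3 pairs of the western diet genotype comparison were all above 0.1, which held for no other 2 groups. The block changed no call between genotypes on western diet. Signals of Xkr8, Mtfr1l, Zfp593 and Asap3 near background limit the size of their differences.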

Other observations

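Beyond the listed segment, Col16a1, a fibril-associated collagen at rank -55, was lower in SHPKO on both diets, a gene named after its values were seen. It read 7.33, 7.42 and 7.62 in WT and 5.59, 5.53 and 5.56 in SHPKO on chow, and 6.35, 6.48 and 6.97 against 5.68, 4.90 and 5.50 on western diet. The fall was 3.73-fold on chow (-1.90 ± 0.19, adjusted p = 6.2e-05) and 2.36-fold on western diet (-1.24 ± 0.19, adjusted p = 0.0020). Eya3, a tyrosine phosphatase and transcription cofactor at rank -23 beside Xkr8, had 3 kept probes. Their differences were -0.67, -0.94 and -0.56 on chow and 0.34, -0.90 and -0.45 on western diet, with the second called on both diets. That second probe was undetected on every SHPKO array, so its sizes rest in part on values not above background. It passed the filter only through the WT chow arrays, which favoured the direction of its chow call. Among the 4 of 16 probes called at ranks -100 to -76 were 2 of the 3 kept probes of Rbbp4, a histone-binding subunit of chromatin complexes, lower in SHPKO by values of -0.85 and -1.57 on chow and -0.82 and -1.92 on western diet. Trim62 in the same block was also called on both diets (-1.39 and -0.98, chow given first). So were Bsdc1 (-1.38 and -1.51) and a probe of Zmym6 (-1.11 and -1.93), which lie on either side of the block. The third kept Rbbp4 probe differed by 0.35 and -0.46. Another kept Zmym6 probe differed by -0.02 and -0.35, and neither of these probes was called. These genes too were named after their values were seen.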
